A study of Mus musculus with 24 samples.

Results

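The 10 genes followed here are those whose transcripts are widely used as marks of type 1 innate lymphoid cells (ILC1), tissue residency or an immature stage in the natural killer (NK) cell family, namely Il7r, Kit, Itga1, Itgae, Cxcr6, Ahr, Zfp683, Tmem176a, Tmem176b and Cd7. They were taken by name from a table of expected counts of 38215 genes, in which each of the 10 had 1 entry. The table covers bulk RNA sequencing of poly(A) RNA from mouse NK cells in 24 libraries, 4 in each of 6 groups. The groups were wild-type (WT) and knockout (KO) cells from naive spleen, WT and KO cells from IL-15-treated spleen samples, and WT and KO cells from tumour-bearing lung, where KO is loss of FcRγ, the signalling adaptor encoded by Fcer1g. The lung samples carry the word naive in their treatment label. The design calls the 4 libraries of a group biological replicates. Strain, age, the kind of tumour, the sort gates, the route and dose of IL-15 and the number of animals behind a library were not given in the sources used here. The p-values therefore measure only the spread between these libraries, which may be technical.

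NK cells and ILC1 are related lymphocytes. Conventional NK cells circulate and depend on the transcription factor Eomes, whereas ILC1 settle in tissues such as liver, gut and gland and are recognised by the IL-7 receptor, the collagen-binding integrin CD49a and the chemokine receptor CXCR6. Immature NK cells share part of that surface, IL-7 receptor and Kit among it, and lose it as they mature. None of the 10 genes is exclusive to these cells: Il7r is also read in T cells, Kit in mast cells, and Itgae and the Tmem176 pair in dendritic cells or macrophages.

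The 3 stretches of upstream sequence printed next belong to genes that moved. They come from RefSeq on build GRCm38.p6 and run 5′ to 3′ along the strand named. The first is shown because Tmem176a and Tmem176b, which moved together in naive spleen, are transcribed away from each other across it: it is chr6:48841345-48841512 on the plus strand, and the capitals mark the 108 bases between the 2 gene starts.
Tmem176a and Tmem176b: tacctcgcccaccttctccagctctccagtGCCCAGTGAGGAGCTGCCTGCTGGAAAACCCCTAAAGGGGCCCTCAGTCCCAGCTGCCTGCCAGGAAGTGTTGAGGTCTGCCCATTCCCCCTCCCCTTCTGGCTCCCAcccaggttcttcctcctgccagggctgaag
The Il7r stretch, chr15:9529847-9530126 on the minus strand, is shown because Il7r fell with IL-15, a cytokine that signals through STAT5. Its capitals mark a match to TTCNNNGAA, the core of STAT5 sites, at position -142 and a match to TGTGGTT, a RUNX core, at position 4 after the start.
Il7r: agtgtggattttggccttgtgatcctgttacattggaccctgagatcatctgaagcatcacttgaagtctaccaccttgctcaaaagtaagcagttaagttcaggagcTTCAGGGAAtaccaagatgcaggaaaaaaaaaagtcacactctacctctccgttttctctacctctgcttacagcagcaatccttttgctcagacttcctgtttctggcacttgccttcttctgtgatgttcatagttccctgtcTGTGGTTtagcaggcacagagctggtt
The Kit stretch, chr5:75574737-75575016 on the plus strand, is shown because Kit was higher in KO in naive spleen and in lung. Its capitals mark GCGTG, the core bound by the dimer of AHR, at position -80.
Kit: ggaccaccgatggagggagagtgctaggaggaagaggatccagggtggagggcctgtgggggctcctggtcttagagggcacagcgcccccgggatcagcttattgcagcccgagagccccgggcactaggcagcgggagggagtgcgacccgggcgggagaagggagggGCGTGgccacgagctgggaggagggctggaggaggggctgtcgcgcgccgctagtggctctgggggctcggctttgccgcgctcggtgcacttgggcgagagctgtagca
The 3 motifs were searched on both strands in windows of 300 bases, 250 before to 50 after a RefSeq start, and they do not contain one another. TTCNNNGAA was in 8.3% of the 32817 windows of all genes, GCGTG in 32.4% and TGTGGTT in 5.3%. Of the 10 genes 6 had a window, and those of Itga1, Cxcr6, Tmem176a and Tmem176b held none of the 3 motifs. A match is a run of letters and not a measured site, and no binding was measured here. Ahr, Itgae, Zfp683 and Cd7 were not in the sequence table.

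Library totals ranged from 9.68 to 32.1 M counts. KO naive replicate 1 (9.68 M) and WT lung replicate 1 (9.77 M) were the shallowest, so their low values carry the largest counting error. Fcer1g separated the genotypes, from 253.0 CPM (counts scaled to library size) upward in WT libraries and up to 16.2 CPM in KO libraries. All 16 listed NK markers had counts in every group, which samples that also hold other cells would show as well. Ncr1 averaged from 415.3 CPM in IL-15-treated WT spleen to 1211 CPM in naive WT spleen. Eomes averaged from 455.3 CPM in IL-15-treated KO spleen to 821.1 CPM in KO lung. Summed NK markers in naive spleen were 22781 ± 1548 CPM in KO and 27142 ± 895.9 in WT (exact two-sided permutation p = 0.0286, adjusted 0.107, n = 4 and 4). The mitochondrial share of counts was 8.49 to 10.73% in KO lung against 3.17 to 6.14% in WT lung, and 1.18 to 9.28% in KO naive spleen, with replicate 1 the lowest, against 4.89 to 6.31% in WT naive spleen. Its part in the results was not tested. Changes are given as log2 values ± standard error from edgeR fits over all genes, a gene passed where its adjusted p was under 0.05, and levels are CPM on TMM-scaled totals.

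Loss of FcRγ went with more Kit, Tmem176a and Tmem176b transcript in naive spleen and with more Il7r, Kit and Ahr transcript in lung. In naive spleen 3 of the 10 genes passed, all higher in KO, where 20.3% of all 13344 genes tested passed and 11.1% passed as higher. The libraries of KO and WT were apart for the same 3 genes, as they were for 20.3% of all genes, 10.4% with KO higher. In lung 3 of the 10 passed, again all higher in KO, where 0.625% of 13129 genes passed and 0.305% passed as higher. That count fell to 1, Il7r, with any of WT lung replicate 2 or 3 or KO lung replicate 2, 3 or 4 left out. Some marker lists of other cells stood higher in KO lung. The 10 B cell markers summed to 144.5 to 193.1 CPM, against 110.9 to 140.5 in WT (exact two-sided permutation p = 0.0286, adjusted 0.214). The 8 melanocytic markers summed to 13.0 to 68.7 and overlapped WT at 2.81 to 25.1 CPM (exact two-sided permutation p = 0.0857, adjusted 0.214). The 11 neutrophil markers summed to 10.6 to 44.7 and overlapped WT at 3.92 to 25.7 CPM (exact two-sided permutation p = 0.0857, adjusted 0.214). Mast cell and basophil markers summed to a lower mean in KO (270.1 against 350.4 CPM), and ILC2 markers to 167.5 and 166.7. The ILC1 sum was also lower in KO (668.7 against 807.4 CPM), although 10 of its 12 means were higher. The part of these cells in the lung results was not tested. The ranges were apart for the same 3 genes in lung and for 8.77% of all genes, 4.21% with KO higher. Under IL-15 none of the 10 passed in edgeR, where 0.135% of genes did, 3 had an unadjusted p under 0.05 (Il7r, Kit and Tmem176b), and DESeq2 and voom with library weights also gave 0. The ranges were apart there for 1 gene, Tmem176b, and for 3.07% of all genes, 2.07% with KO higher. Over the 10 genes the median KO change was 0.61 in naive cells, 0.23 with IL-15 and 0.65 in lung. The medians over all genes were -0.00, -0.01 and 0.00. The 10 genes were chosen with earlier results of these data known, so these counts and medians only describe them and test nothing about the set.

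The genes did not move as 1 group between states. From naive to IL-15-treated spleen 3 of the 10 rose and 3 fell in WT, where 52.4% of all genes passed, 26.4% up and 26.0% down. In KO 3 rose and 5 fell, where 41.7% of all genes passed, 20.7% up and 21.0% down. From naive spleen to lung 2 rose and 4 fell in WT, where 49.2% of 14275 genes passed, 29.2% up and 20.0% down. In KO 2 rose and 4 fell as well, where 42.4% passed, 24.3% up and 18.1% down. From IL-15-treated spleen to lung 2 rose and 4 fell in WT, where 44.3% passed, 23.8% up and 20.6% down. In KO 2 rose and 3 fell, where 43.8% passed, 23.3% up and 20.5% down. With so many genes changed between states, a count of 5 or 6 among the 10 lies not far above the share of all genes. The count of 8 with IL-15 in KO lies further above it, at 80.0% beside 41.7%. The counts were not tested against these shares. The comparisons with naive spleen share the naive libraries, those with IL-15 share the IL-15 libraries, and spleen and lung differ in tissue and in tumour at once, which cannot be told apart.

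**Figure D1:**
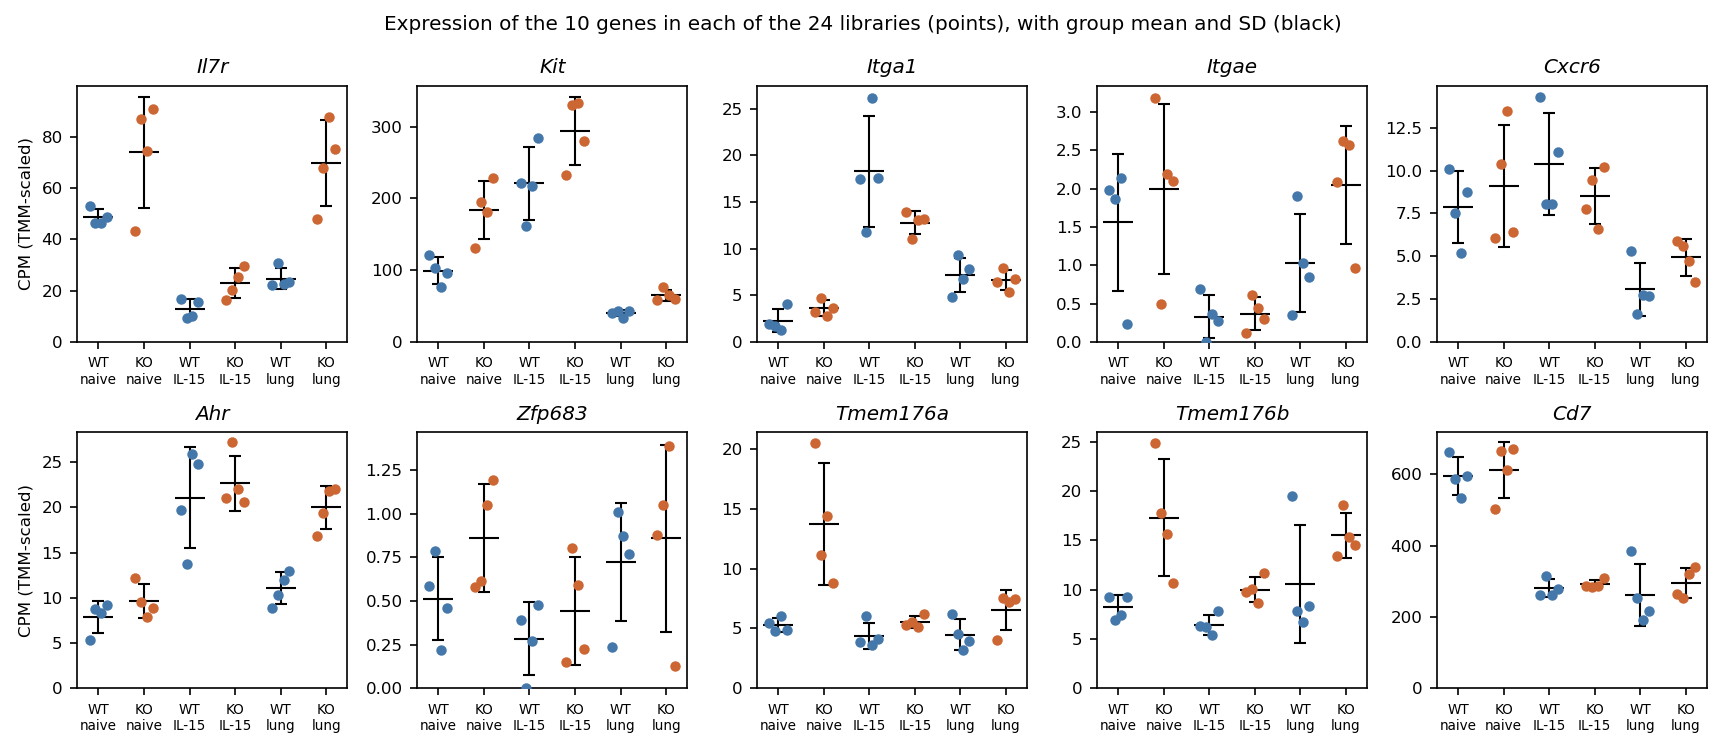
Level of each of the 10 genes in every library, in TMM-scaled CPM on linear axes that start at 0 and differ between genes. Each group has 4 points (WT blue, KO orange), and black bars give the group mean and SD. Il7r is lowest in IL-15-treated WT spleen and Kit highest in IL-15-treated KO spleen, while Itgae (at most 3.18 CPM) and Zfp683 (at most 1.39 CPM) are low in all groups.

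Il7r (15:9506161-9529876 on build GRCm38, minus strand, protein coding) encodes the IL-7 receptor alpha chain, which pairs with the common gamma chain to bind IL-7 and with another chain to bind TSLP. In naive spleen its 4 WT libraries stood at 53.0, 46.3, 46.4 and 48.7 CPM and its 4 KO libraries at 43.4, 87.2, 74.5 and 91.1 CPM. All KO libraries but 1 were above every WT library and the exception, the shallow KO replicate 1, was below all of them. The change was 0.59 ± 0.23 (adjusted p = 0.0728), which did not pass. It was 0.77 (adjusted p = 0.0125) without KO naive replicate 1, and it passed in 5 of 10 alternative analyses.

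In lung the Il7r levels were 22.1, 30.6, 22.7 and 23.4 CPM in WT and 47.8, 67.9, 87.8 and 75.5 CPM in KO. Every KO lung library was above every WT lung library. KO against WT gave 1.49 ± 0.18, a 2.82-fold higher level (adjusted p = 0.00205). With each lung library left out in turn it stayed between 1.36 and 1.63, with adjusted p no higher than 0.0147, and it passed in every alternative.

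Under IL-15 the Il7r levels were lower in both genotypes, at 16.6, 9.21, 9.98 and 15.4 CPM in WT and 16.3, 20.2, 25.5 and 29.6 CPM in KO. The lowest KO library lay just inside the WT range and the other 3 lay above it. Il7r changed by 0.82 ± 0.23 in KO there (adjusted p = 0.757), and it passed only with a correction for transcript length and GC content (adjusted p = 0.0479). The KO effect in lung minus that in naive spleen was 0.88 ± 0.31 (adjusted p = 0.172), so a difference between the tissues did not pass; none of the 10 passed this test, where 1.15% of all genes did.

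Between states Il7r fell with IL-15 by 2.01 ± 0.24 in WT (adjusted p = 1.09e-06) and by 1.77 ± 0.23 in KO (adjusted p = 6.44e-06). In lung, WT cells held less Il7r than in naive spleen (-0.97 ± 0.22, adjusted p = 0.000857), whereas in KO the change was -0.09 ± 0.22 (adjusted p = 0.776). Against IL-15-treated spleen Il7r was higher in lung in WT (0.95 ± 0.23, adjusted p = 0.00144) and in KO (1.61 ± 0.23, adjusted p = 2.34e-06). In order of mean level the groups ran from KO naive (74.0 ± 21.6, SD) and KO lung (69.8 ± 16.8) through WT naive (48.6 ± 3.15), WT lung (24.7 ± 3.95) and KO IL-15 (22.9 ± 5.85) to WT IL-15 (12.8 ± 3.76 CPM). WT naive and WT lung were the only neighbours in that order whose libraries did not overlap.

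Because Il7r is also a T cell gene, the T cell markers are given beside it. The 15 αβ T cell markers summed to 674.0 to 918.7 CPM in KO lung and 592.1 to 748.8 CPM in WT lung (exact two-sided permutation p = 0.0857, adjusted 0.214). Of the 15, 12 had a higher mean in KO, and of 14 tested in edgeR 1 passed, as higher. The largest parts of the sum were Tcf7 (311.3 CPM in KO and 229.7 in WT) and Trbc1 (203.1 and 169.7). Tcf7 is also on the list of immature NK genes used below, so the sum is not a measure of T cells alone. Cd3e averaged 4.79 CPM in KO lung and 1.98 in WT lung, Cd8a 1.41 and 0.535, and Cd4 0.712 and 0.234. Cd8b1, which was at 0 in every spleen library, averaged below 1 CPM in both lung groups. In naive spleen the sums were 639.8 to 915.1 CPM in KO and 603.8 to 721.4 in WT. Again 12 of the 15 means were higher in KO, and of 12 tested in edgeR 3 passed as higher and 1 as lower. Cd3e averaged 5.88 and 1.78 there, while Trbc2 was lower in KO, at 58.1 and 78.9. In bulk samples more cells of a type and more RNA per cell cannot be told apart, and the part of these cells in the Il7r result was not tested.

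Kit (5:75574916-75656722, plus strand, protein coding) encodes the receptor tyrosine kinase for stem cell factor. In naive spleen the WT libraries held 121.5, 103.1, 75.8 and 95.6 CPM and the KO libraries 131.4, 195.5, 181.2 and 229.1 CPM. All 4 KO libraries lay above all 4 WT libraries, the shallow KO library closest to them. The KO change was 0.87 ± 0.19, 1.83-fold (adjusted p = 0.00345), and it passed with every library left out in turn and in every alternative. Its size ranged from 0.62 to 1.01 in the alternatives.

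In lung Kit was lower in both genotypes, with 40.6, 42.6, 33.4 and 42.3 CPM in WT and 58.6, 75.9, 64.7 and 59.6 CPM in KO. The KO and WT libraries did not overlap. KO against WT gave 0.71 ± 0.12, 1.63-fold (adjusted p = 0.0223). This call was fragile: it ended in 6 of 8 fits with a library left out, at the weakest 0.62 (adjusted p = 0.109) without KO lung replicate 2, and also with all 24 libraries in 1 fit (0.0599), with the replicate block (0.0556) and with the length and GC correction (0.0517). The size of the change stayed between 0.60 and 0.75 throughout.

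Kit was highest under IL-15, at 221.8, 160.9, 217.1 and 285.0 CPM in WT and 232.1, 329.7, 333.3 and 280.1 CPM in KO. The ranges overlapped, and the KO change was 0.40 ± 0.18 (adjusted p = 1.00). IL-15 against naive gave a rise of 1.07 ± 0.19 in WT (adjusted p = 8.81e-05) and 0.60 ± 0.18 in KO (adjusted p = 0.0138, but 0.0813 with the length and GC correction). Lung against naive gave a fall of 1.32 ± 0.18 in WT (adjusted p = 1.02e-06) and of 1.51 ± 0.18 in KO (adjusted p = 2.13e-07). Lung against IL-15 gave -2.48 ± 0.18 in WT (adjusted p = 2.95e-11) and -2.18 ± 0.18 in KO (adjusted p = 2.24e-10). Kit and Il7r thus took opposite directions under IL-15, and in WT both were lower in lung than in naive spleen.

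Markers of mast cells, the other cells known for Kit, are given beside it. Tpsab1, Tpsb2 and Mcpt4, which encode mast cell proteases, were at 0 in all 24 libraries. In naive spleen 8 of the 11 mast cell and basophil markers had a count in WT and 5 in KO. None of the 11 had a higher mean in KO than in WT, and 1 did in CPM without TMM scaling. A marker at 0 in both genotypes could not be higher in either. The sum of the list was 217.9 to 317.9 CPM in KO and 239.7 to 286.1 in WT. Nearly all of that sum was Cma1, which mature NK cells also express (255.4 and 255.6 CPM). In lung the sum was 225.3 to 302.7 CPM in KO and 241.4 to 500.8 in WT, and Hdc, the histamine-forming enzyme, averaged 3.14 and 2.40. Under IL-15, where Kit was highest, the sum was 6.83 to 12.8 CPM in WT and 5.77 to 8.34 in KO, while Cpa3, a mast cell protease gene, averaged 2.25 CPM in WT against 0.496 in naive WT spleen. The part of these cells in the Kit results was not tested. Kitl, the ligand gene, averaged at most 4.58 CPM in any group.

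**Figure D2:**
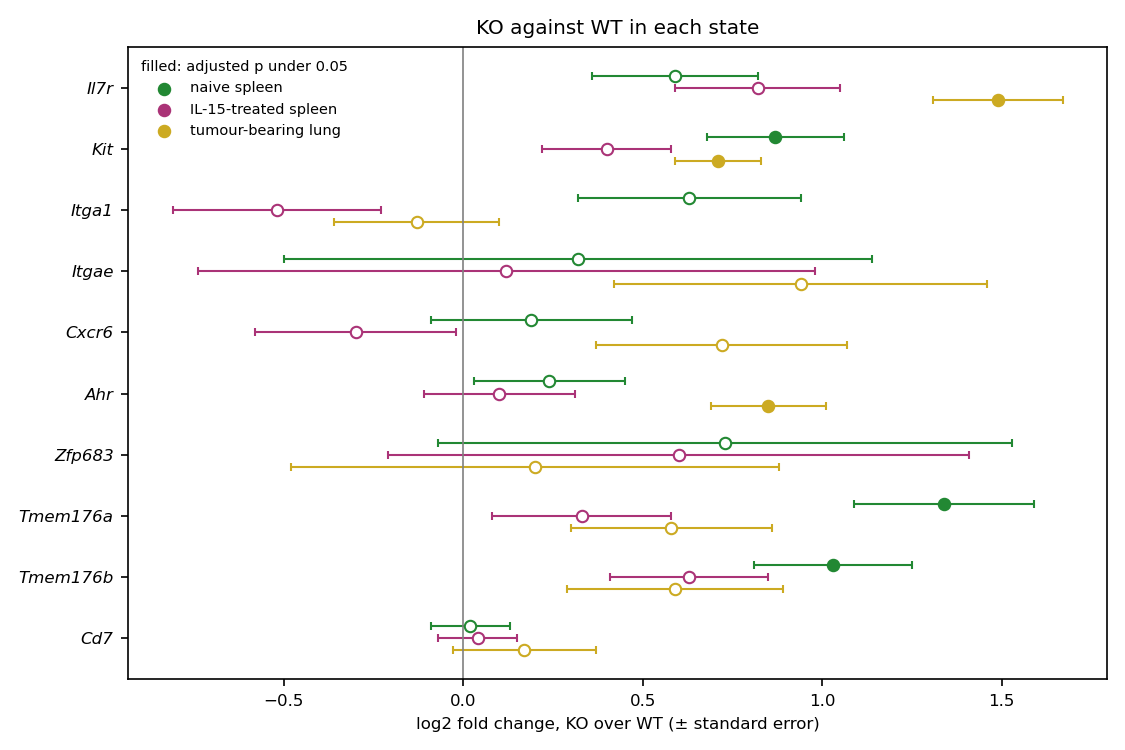
KO against WT change of each of the 10 genes on the log2 scale, with bars of 1 standard error, in naive spleen, IL-15-treated spleen and lung. Filled points passed the adjusted p of 0.05: Kit, Tmem176a and Tmem176b in naive spleen and Il7r, Kit and Ahr in lung, all to the right of 0.

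Itga1 (13:114958079-115101964, minus strand) encodes CD49a, the alpha chain of a collagen-binding integrin that pairs with the product of Itgb1. Its levels in naive spleen were 1.94, 1.72, 1.27 and 4.05 CPM in WT and 3.18, 4.73, 2.74 and 3.65 CPM in KO. WT replicate 4 stood above 3 of the 4 KO libraries while the other WT libraries were below all of them. Itga1 changed by 0.63 ± 0.31 (adjusted p = 0.162), and 1.10 (adjusted p = 0.0119) without WT naive replicate 4.

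Of the 10 genes Itga1 rose most with IL-15, to 17.5, 11.8, 26.2 and 17.6 CPM in WT and 13.9, 11.0, 13.1 and 13.2 CPM in KO. The lowest IL-15 library stood above the highest naive library in each genotype. The rise was 2.92 ± 0.32 in WT (adjusted p = 4.19e-07) and 1.76 ± 0.31 in KO (adjusted p = 0.000142). In the alternatives it ranged from 2.13 to 3.34 in WT and from 1.34 to 1.83 in KO, and it passed in each. Itga1 has 18.6 kb of exon. Genes of 10 kb or more had a median IL-15 change of 0.55 in WT and 0.24 in KO, and of 0.56 and 0.29 in lung against naive spleen. The part of length was not tested beyond the alternative with a length and GC correction. The KO effect under IL-15 minus that in naive spleen was -1.16 ± 0.42 (adjusted p = 0.173) and -1.62 (adjusted p = 0.0292) without WT naive replicate 4. None of the 10 genes passed this interaction, where 1.54% of all genes did; with the block by library number 0 of all genes passed.

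In lung Itga1 stood between the spleen states, at 4.82, 9.27, 6.77 and 7.85 CPM in WT and 6.43, 7.93, 5.30 and 6.79 CPM in KO. The genotypes overlapped fully (-0.13 ± 0.23, adjusted p = 0.862). Lung was above naive spleen by 1.68 ± 0.30 in WT (adjusted p = 4.58e-05) and by 0.88 ± 0.29 in KO (adjusted p = 0.0168, a call that ended in 2 of 8 fits with a library left out and with the length and GC correction, 0.0770). Lung was below IL-15-treated spleen by -1.34 ± 0.28 in WT (adjusted p = 0.000413) and -0.95 ± 0.28 in KO (adjusted p = 0.00757).

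Itgae (11:73090583-73147446, plus strand) encodes CD103, the alpha E chain that pairs with the beta 7 chain to bind E-cadherin on epithelium. It was near the limit of detection, with 0 to 65 counts per library and group means from 0.330 ± 0.284 CPM in IL-15-treated WT spleen to 2.05 ± 0.770 CPM in KO lung. No KO comparison passed: they gave 0.32 ± 0.82 in naive cells, 0.12 ± 0.86 with IL-15 and 0.94 ± 0.52 in lung (adjusted p = 0.824, 1.00 and 0.511). With IL-15 it fell by 2.28 ± 0.86 in WT (adjusted p = 0.0336) and by 2.48 ± 0.87 in KO (adjusted p = 0.0285), but these calls ended in 6 of 8 and 5 of 8 fits with a library left out, and with the replicate block (0.0523 and 0.0678). In KO it was higher in lung than under IL-15 (2.46 ± 0.79, adjusted p = 0.0131), which held with each library left out. Itgb7, its partner, was abundant and also fell with IL-15, from 581.7 ± 85.8 to 156.1 ± 13.9 CPM in WT (-1.98 ± 0.13, adjusted p = 3.96e-10) and from 787.6 ± 115.8 to 191.3 ± 11.0 in KO (-2.11 ± 0.13, adjusted p = 1.99e-10).

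Cxcr6 (9:123806477-123811754, plus strand) encodes the receptor for the chemokine CXCL16, which holds lymphocytes in liver and lung. Its libraries in naive spleen ranged from 5.20 to 10.1 CPM in WT and 6.07 to 13.5 in KO, and under IL-15 from 8.04 to 14.3 in WT and 6.58 to 10.2 in KO. Genotypes overlapped in each of these states, and the KO changes were 0.19 ± 0.28 and -0.30 ± 0.28 (adjusted p = 0.678 and 1.00). In lung, it was at its lowest: 5.29, 1.64, 2.73 and 2.65 CPM in WT and 5.87, 5.60, 4.74 and 3.50 CPM in KO. Only the shallow WT lung library reached the KO range, and the KO change was 0.72 ± 0.35 (adjusted p = 0.456), or 1.06 (adjusted p = 0.0757) without that library. Against naive spleen Cxcr6 fell by 1.42 ± 0.32 in WT (adjusted p = 0.000739) and by 0.89 ± 0.31 in KO (adjusted p = 0.0223, which ended in 3 of 8 fits with a library left out and with the length and GC correction, 0.0867). Against IL-15 it was lower in WT (-1.81 ± 0.32, adjusted p = 5.93e-05) and in KO (-0.79 ± 0.31, adjusted p = 0.0406, which ended in 6 of 8 such fits and in 2 alternatives).

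Ahr (12:35497974-35535038, minus strand) encodes the aryl hydrocarbon receptor, a ligand-activated transcription factor that works as a dimer with ARNT. In lung its levels were 8.93, 10.3, 12.0 and 13.0 CPM in WT and 16.8, 19.4, 21.8 and 22.0 CPM in KO. Every KO library was above every WT library. The KO change was 0.85 ± 0.16, 1.80-fold (adjusted p = 0.0382). The call ended in 6 of 8 fits with a library left out (at the weakest adjusted p = 0.164, with a change of 0.80, without KO lung replicate 4) and with the replicate block (0.0521), while the size stayed between 0.76 and 0.93.

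In spleen Ahr did not separate the genotypes. The naive libraries held 5.32, 8.77, 8.30 and 9.26 CPM in WT and 12.2, 9.51, 7.84 and 8.89 CPM in KO (0.24 ± 0.21, adjusted p = 0.462), and the IL-15 libraries 19.7, 13.8, 25.9 and 24.8 in WT and 21.0, 27.2, 22.0 and 20.6 in KO (0.10 ± 0.21, adjusted p = 1.00). With IL-15 it rose by 1.32 ± 0.21 in WT (adjusted p = 4.03e-05) and 1.18 ± 0.21 in KO (adjusted p = 0.000199). Lung against naive spleen gave 1.07 ± 0.20 in KO (adjusted p = 0.000129) and 0.49 ± 0.20 in WT (adjusted p = 0.0450), and the WT call ended in 5 of 8 fits with a library left out and in 3 alternatives. In WT Ahr was lower in lung than under IL-15 (-0.92 ± 0.20, adjusted p = 0.000474).

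Other genes of the AHR pathway were followed beside it. Arnt, the dimer partner, averaged 49.8 to 63.7 CPM over the 6 groups. Tiparp, a gene induced by the receptor, rose from 12.8 ± 3.17 to 41.3 ± 7.37 CPM from naive spleen to lung in WT (1.69 ± 0.23, adjusted p = 1.22e-06) and from 12.9 ± 4.86 to 41.7 ± 3.00 in KO (1.68 ± 0.23, adjusted p = 2.42e-06). KO against WT in lung gave 0.01 ± 0.14 for Tiparp (adjusted p = 0.992), where Ahr itself was higher in KO. Under IL-15, where Ahr rose, the change of Tiparp was 0.10 ± 0.26 in WT (adjusted p = 0.760) and 0.25 ± 0.26 in KO (adjusted p = 0.462). Ahrr, the repressor that the receptor induces, was at 0 in all 4 naive WT libraries and averaged 0.546 ± 0.122 CPM in IL-15-treated WT spleen (adjusted p = 0.00137). It averaged 0.193 ± 0.312 CPM in naive KO spleen (adjusted p = 0.0227 against naive WT). The naive KO libraries ranged from 0 to 0.654 CPM, so that call rests on very few reads. In KO Ahrr averaged 0.846 ± 0.240 CPM under IL-15 (adjusted p = 0.122 against naive KO). Cyp1a1, the best known target of the receptor, was at 0 in every spleen library and averaged 1.80 ± 1.84 CPM in WT lung and 0.184 ± 0.342 CPM in KO lung.

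Zfp683 (4:134053838-134058996, plus strand) encodes HOBIT, a transcription factor of resident lymphocytes and a relative of BLIMP-1. It held 0 to 32 counts per library, and its group means ran from 0.285 ± 0.208 CPM in IL-15-treated WT spleen to 0.860 ± 0.535 in KO lung. The libraries of all 6 groups overlapped between neighbours in the order of means. The KO changes were 0.73 ± 0.80 in naive cells, 0.60 ± 0.81 with IL-15 and 0.20 ± 0.68 in lung (adjusted p = 0.561, 1.00 and 0.939), so no difference was detectable at this depth. Prdm1, which encodes BLIMP-1, was far above it, at 69.4 ± 2.79 CPM in naive and 140.8 ± 14.3 CPM in lung WT libraries (1.02 ± 0.17, adjusted p = 1.61e-05).

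Tmem176a (6:48841483-48845364, plus strand) and Tmem176b (6:48833811-48841374, minus strand) encode a pair of related 4-pass membrane proteins of the MS4A family, found in dendritic cells, macrophages and some innate lymphocytes. The file places the starts of the pair at either end of the 108 capital bases printed above, while their GENCODE M21 models overlap on opposite strands. Tmem176a in naive spleen stood at 5.48, 4.76, 6.03 and 4.85 CPM in WT and 20.5, 11.1, 14.4 and 8.81 CPM in KO. Tmem176b stood at 9.21, 6.97, 7.42 and 9.26 CPM in WT and 24.9, 17.8, 15.6 and 10.7 CPM in KO. For both genes every KO library was above every WT library. The shallow KO replicate 1 was the highest and KO replicate 4 the lowest of the KO libraries. In WT lung the shallow replicate 1 was likewise the highest for both genes, at 6.23 and 19.5 CPM.

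The KO changes in naive spleen were 1.34 ± 0.25 for Tmem176a, 2.53-fold (adjusted p = 0.00144), and 1.03 ± 0.22 for Tmem176b, 2.04-fold (adjusted p = 0.00344). Both passed with each library left out in turn and in every alternative, and the lowest values with a library left out were 1.10 and 0.82. Genes of middle length, 1.5 to 10 kb of exon, had a median KO change of 0.00. It was -0.30 for shorter and 0.34 for longer genes. Both genes and Kit fall in the middle class, Kit near its upper end with 8.91 kb of exon. The part of length in their changes was not tested beyond the alternative with a length and GC correction.

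Under IL-15 Tmem176b was the 1 gene of the 10 whose genotypes did not overlap, at 6.32, 6.19, 5.41 and 7.82 CPM in WT and 9.72, 10.1, 8.62 and 11.7 CPM in KO (0.63 ± 0.22, adjusted p = 1.00). Tmem176a overlapped there (0.33 ± 0.25, adjusted p = 1.00). In KO both genes fell from naive to IL-15, by 1.36 ± 0.25 for Tmem176a (adjusted p = 0.000227) and by 0.84 ± 0.22 for Tmem176b (adjusted p = 0.00433), and neither passed in WT. The KO effect on Tmem176a under IL-15 minus that in naive spleen was -1.01 ± 0.35 (adjusted p = 0.151), so the difference itself did not pass.

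In lung Tmem176a held 6.23, 4.55, 3.17 and 3.92 CPM in WT and 4.07, 7.53, 7.17 and 7.46 CPM in KO (0.58 ± 0.28, adjusted p = 0.455). Tmem176b held 19.5, 7.79, 6.70 and 8.35 CPM in WT and 13.4, 18.6, 15.3 and 14.5 CPM in KO (0.59 ± 0.30, adjusted p = 0.475). The shallow WT lung replicate 1 stood above every KO library for Tmem176b while the other 3 WT libraries lay below all of them. Without it the change was 1.02 (adjusted p = 0.00351), and voom with library weights, which kept it, gave adjusted p = 0.00798. In KO Tmem176a was lower in lung than in naive spleen (-1.06 ± 0.26, adjusted p = 0.00198), and its KO effect in lung minus naive spleen was -0.79 ± 0.37 (adjusted p = 0.311). In WT Tmem176b was higher in lung than under IL-15 (0.68 ± 0.27, adjusted p = 0.0415), but only 0.24 (adjusted p = 0.401) without WT lung replicate 1.

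Markers of the myeloid cells and ILC3 that also read the Tmem176 pair are given with it. The 12 dendritic cell markers in naive spleen summed to 758.9 to 965.4 CPM in KO and 515.2 to 742.3 in WT (exact two-sided permutation p = 0.0286, adjusted 0.107), with 9 of 12 means higher in KO. Most of that sum was Itgax, which NK cells also express (824.4 and 625.5 CPM), while Xcr1 and Siglech, markers of dendritic cell subsets, were at 0 in every naive library. H2-Aa averaged 9.91 CPM in KO and 6.07 in WT, and Cd74 22.1 and 11.8. The ILC3 genes Il22, Il23r and Il17a were at 0 in all 24 libraries. The 12 macrophage markers in lung summed to 561.5 to 1049 CPM in KO and 505.9 to 577.8 in WT (exact p = 0.0571, adjusted 0.214), and all 12 means were higher in KO. Ccr2, at 467.4 and 419.5 CPM, was the largest part of it. Lyz2, lysozyme, averaged 312.7 CPM in KO (131.7 to 572.6) and 94.9 in WT (46.2 to 115.4), Cd14 10.1 and 3.76, Marco 4.17 and 1.31, and C1qb 5.39 and 1.82, and 0 of the 11 macrophage markers tested passed in edgeR. Their part in the Tmem176 levels was not tested.

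Cd7 (11:121036747-121039418, minus strand) encodes a surface immunoglobulin family protein of early lymphoid, NK and T cells. It was the most abundant of the 10 per kilobase of exon, at 525.4 CPM per kb in naive WT spleen. The naive libraries held 663.4, 587.0, 534.7 and 595.8 CPM in WT and 502.4, 666.5, 612.2 and 670.8 CPM in KO, with complete overlap. The KO change was 0.02 ± 0.11 (adjusted p = 0.935), with an interval of 1.96 standard errors from -0.20 to 0.23. Under IL-15 and in lung it was 0.04 ± 0.11 and 0.17 ± 0.20 (adjusted p = 1.00 and 0.767).

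Cd7 instead followed the state. With IL-15 it fell by 1.17 ± 0.11 in WT (adjusted p = 8.22e-08) and by 1.14 ± 0.11 in KO (adjusted p = 1.47e-07), with no overlap of libraries. Lung was lower than naive spleen by 1.19 ± 0.16 in WT (adjusted p = 7.59e-07) and by 1.06 ± 0.16 in KO (adjusted p = 6.23e-06). Cd7 has 1.13 kb of exon. Genes under 1.5 kb had a median IL-15 change of -0.34 in WT and -0.14 in KO, and of -0.21 and -0.02 in lung against naive spleen. All 4 falls of Cd7 passed in every alternative, and the part of length was not tested further. The 4 groups outside naive spleen averaged between 261.4 ± 85.9 and 294.3 ± 42.0 CPM and overlapped between neighbours. Cd7 is itself among the 16 NK markers, and the sum of that list was also lower with IL-15 and in lung than in naive spleen. The median of the sum in WT was 27227 CPM in naive, 12809 in IL-15-treated and 20031 in lung cells, and in KO 22720, 11858 and 17769 CPM. It was thus higher in lung than under IL-15, where Cd7 changed by -0.10 ± 0.15 in WT and 0.01 ± 0.15 in KO (adjusted p = 0.624 and 0.952). Gzma was the largest part of the sum, at 8317 CPM in naive WT spleen. Eomes (802.7 against 624.0 CPM), Gzmb (1495 against 615.6) and Ctsw (644.4 against 513.3) were higher in WT lung than in naive WT spleen, the rest of the list lower. Gzmb alone was higher with IL-15 in WT, at 1870 CPM. The part of the NK cell content in the Cd7 levels was not tested.

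**Figure D3:**
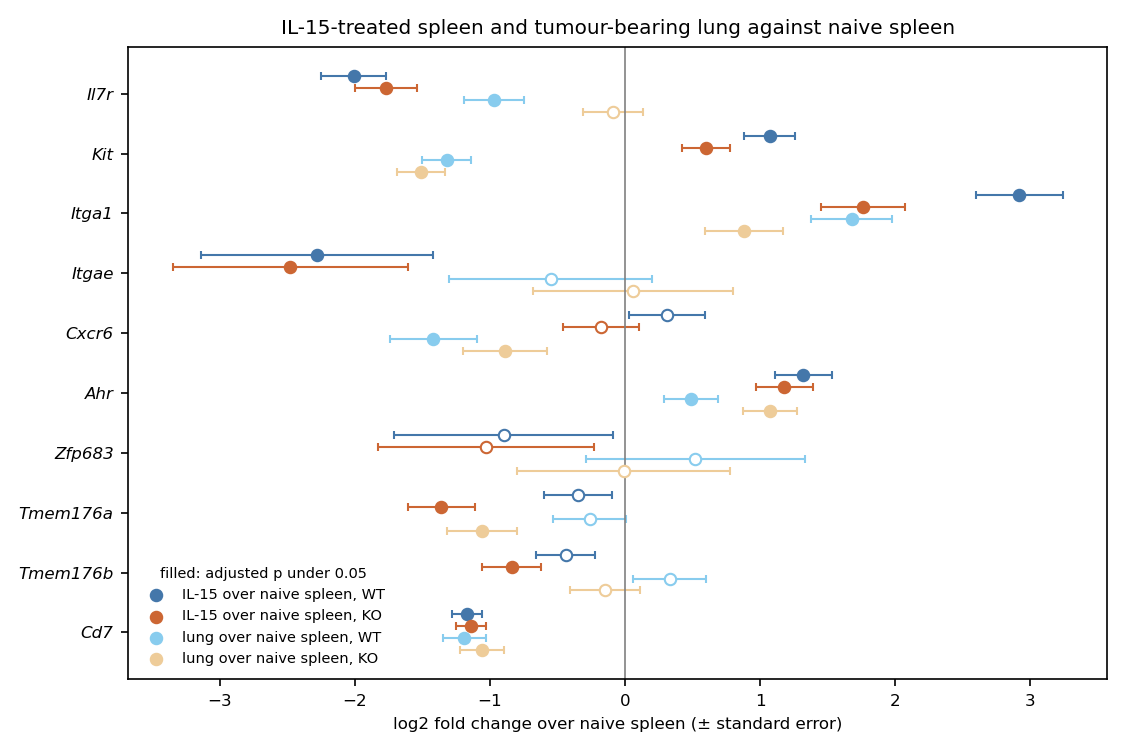
Log2 change of each of the 10 genes over naive spleen, in IL-15-treated spleen and in lung, for WT and KO, with bars of 1 standard error and filled points where the adjusted p was under 0.05. Il7r and Cd7 lie left of 0 and Itga1, Ahr and Kit right of 0 in IL-15 over naive spleen, while Kit lies left of 0 in lung over naive spleen.

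Per kilobase of exon the levels of the 10 genes spanned a wide range. Cd7 lay between 230.7 and 541.0 CPM per kb in the 6 groups. Kit lay between 4.46 and 33.0 and Il7r between 2.75 and 15.9 CPM per kb. Itga1, a gene of 18.6 kb of exon, reached at most 0.983, Itgae at most 0.448 and Zfp683 at most 0.585 CPM per kb. These 3, the genes for CD49a, CD103 and HOBIT, were the scarcest on this scale in each of the 6 groups. Of the 10 genes 7 are overlapped by another annotated gene, among them Itga1 by Pelo on the same strand, Itgae by Haspin and Cxcr6 by Fyco1 on the opposite one. The strand setting of the counting was not given in the sources used here, and reads of such pairs cannot be told apart.

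**Figure D4:**
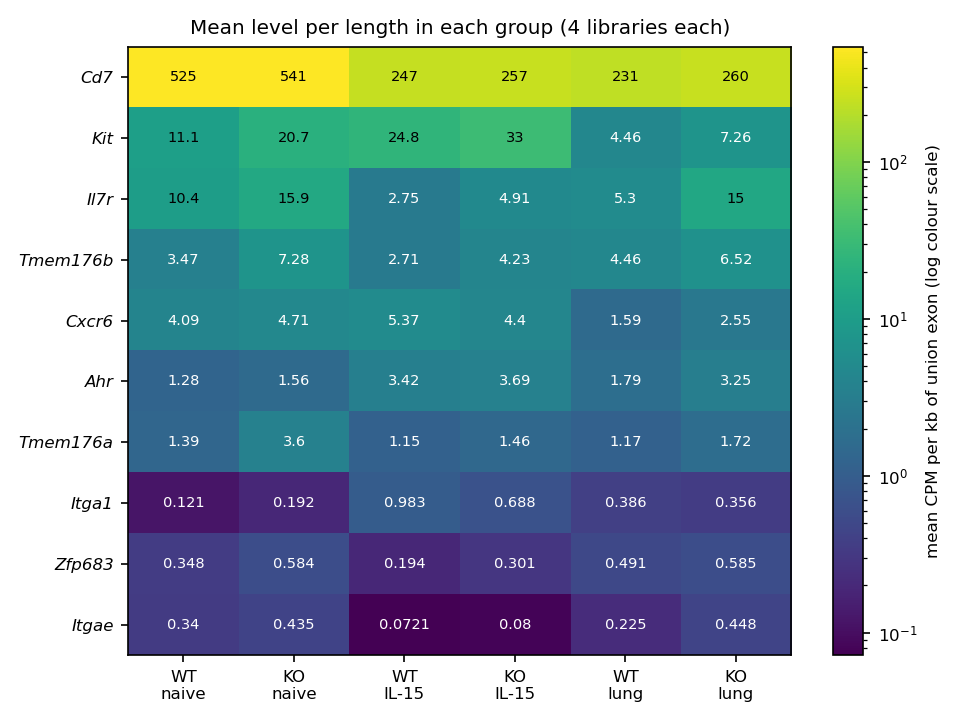
Mean level of each of the 10 genes (rows) in each of the 6 groups of 4 libraries (columns), in CPM per kilobase of union exon, printed in each cell and coloured on a log scale. Cd7 stands above the others in all 6 groups, and Itga1, Itgae and Zfp683 stay below 1 CPM per kb.

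Other genes of the same programmes, from lists chosen with earlier results of these data known, give the surroundings. Of 37 other ILC1 and residency genes tested in naive spleen 7 rose and 1 fell in KO, with a median of 0.13. In both directions together that share is near the 20.3% of all genes. The share that rose lies above the 11.1% of all genes that passed as higher, and neither was tested against these shares. Among them Rora, a transcription factor of innate lymphoid cells, averaged 22.6 ± 1.91 CPM in KO and 11.0 ± 2.14 in WT (1.01 ± 0.18, adjusted p = 0.000984), and Ikzf2, which encodes Helios, at 14.7 ± 1.26 and 5.70 ± 2.29 (1.34 ± 0.27, adjusted p = 0.00226). Under IL-15 none of the 37 passed, beside 0.135% of all genes. In lung, where 0.625% of all genes passed, 1 of 35 rose, Cd3g, from 3.94 ± 0.962 to 9.27 ± 1.14 CPM (1.24 ± 0.23, adjusted p = 0.0353), a chain of the T cell receptor complex. From naive spleen to lung 17 of 37 rose and 8 fell in WT, and 17 rose and 10 fell in KO, beside 29.2% up and 20.0% down of all genes in WT and 24.3% and 18.1% in KO, led by Nr4a1, Rgs1 and Litaf.

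Of 23 other immature NK genes 5 rose and 2 fell in KO in naive spleen, beside 20.3% of all genes called (11.1% higher), and 1 rose and none fell under IL-15 and in lung, beside 0.135% and 0.625%. That 1 gene was Slamf6, a SLAM family receptor encoded on the same chromosome as Fcer1g, at 27.1 ± 5.89 CPM in KO and 5.72 ± 1.58 in WT lung (2.27 ± 0.23, adjusted p = 0.000563). Bach2, a repressor of effector differentiation, rose by 1.02 ± 0.17 in naive KO spleen. Of 18 genes of mature circulating NK cells 3 rose and 2 fell in KO in naive spleen, beside the same 20.3% of all genes (11.1% higher), and none passed under IL-15 or in lung. All 18 fell from naive to IL-15-treated WT spleen (median -2.15), where 26.0% of all genes fell, and 17 fell in KO, where 21.0% did. All 18 were higher in lung than under IL-15 in both genotypes, beside 23.8% of all genes in WT and 23.3% in KO.

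Of 29 partner, ligand and target genes of the 10 that were tested in naive spleen, 4 rose and 1 fell in KO, none passed under IL-15, and 1 of 25 rose in lung, beside 20.3%, 0.135% and 0.625% of all genes called. Socs2, which STAT5 induces and which dampens cytokine signalling, rose with the KO in naive spleen (12.8 ± 1.30 against 5.18 ± 1.01 CPM, 1.28 ± 0.20, adjusted p = 0.000379) and in lung (21.4 ± 4.26 against 9.59 ± 1.03, 1.16 ± 0.17, adjusted p = 0.00673). Cish, another such inhibitor, was lower in naive KO spleen (8.00 ± 1.80 against 15.4 ± 4.38 CPM, adjusted p = 0.00191). Il2rg, the chain that Il7r needs, averaged 433.7 to 785.9 CPM over the groups, and Il7, the ligand gene, at most 1.55 CPM. Arnt, Tiparp, Ahrr, Cyp1a1, Prdm1, Itgb7, Il2rg, Il7 and Kitl were picked from this list as direct partners, targets or relatives after their values were seen.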

How the data were processed

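The deposited table holds expected counts per gene that the authors obtained from the reads. The tools named in the submitters' processing notes are RSEM 1.2.30, STAR 2.5.2a and cutadapt 1.9, with GRCm38 as genome. Their order, settings, annotation release and strand setting were not given in the sources used here. Per the labels' protocols, RNA came from a Qiagen RNeasy Plus Micro kit, and libraries from a directional poly(A) kit from NEB.

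Expected counts were rounded (5.47% were not whole) and tested in R 4.3.3 with edgeR 4.0.16: filterByExpr with a minimum count of 10, TMM scaling, quasi-likelihood F test, Benjamini-Hochberg adjustment over all genes tested and a threshold of 0.05. The 16 spleen libraries were fitted together, the 8 lung libraries together, and all 24 for comparisons across tissues, 11 comparisons in all. Standard errors are the absolute log2 change over the square root of F. Exon lengths came from GENCODE M21. Markers were summed as CPM and compared by exact permutation tests, whose smallest p at 4 against 4 is 0.0286; 45 such tests were made, adjusted within a state, and none passed. No library repeated another and none was left out. The scripts' tests were tried on simulated data first.

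The 10 genes and all lists were chosen with earlier results of these data known. All 10 are named whatever their values, with at most 3 called genes per list and comparison by smallest p, and for each of the 10 the 2 genes most correlated with it over the libraries. The alternatives were edgeR with DESeq2 size factors, DESeq2 1.42.0 itself, voom with weights per library (limma 3.58.1), no and a stricter filter, other sets of libraries, replicate blocks, an offset for length and GC (mgcv 1.9.3) and each library left out.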

Additional observations from a re-analysis of the deposited data

Results flagged for a closer look

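In 5 of 60 gene and group combinations 1 of the 4 libraries stood apart from the other 3 by Dixon's ratio, and chance gives about 1 in 20. Tmem176b was at 19.5 CPM in WT lung replicate 1, one of the 2 shallow libraries, with the others at 6.70 to 8.35. Tmem176a was at 4.07 CPM in KO lung replicate 1, with the others at 7.17 to 7.53. Il7r was at 30.6 CPM in WT lung replicate 2, with the others at 22.1 to 23.4, which is still below every KO lung library. Itgae was at 0.231 CPM in WT naive replicate 4, with the others at 1.87 to 2.14. Cd7 was at 308.0 CPM in KO IL-15 replicate 4, with the others between 285.4 and 286.1.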

How the results depend on the processing

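Of 43 calls among 110 gene and comparison pairs, 33 held in every setting that was run. For KO against WT in naive spleen the count of 3 of the 10 genes was 3 or 4 in every setting. In lung the count was 1 with the replicate block and 1 to 4 with a library left out, falling to 1 without WT lung replicate 2 or 3 or KO lung replicate 2, 3 or 4; Il7r passed each time. Same-numbered libraries correlated between -0.306 and 0.375 in their deviations. Differently numbered libraries were not compared in this way, so the values cannot show whether the numbers pair the samples. Under IL-15 the count was 1 with the length and GC offset, and the IL-15 interaction had 1 gene with voom with library weights (Kit, adjusted p = 0.0415) and 0 to 1 with a library left out. Among the results printed, signs changed only for changes that passed in no setting. In naive spleen these were Cd7 (-0.01 with no filter, -0.04 to 0.11 with a library left out), Itgae (-0.04 to 0.65) and Cxcr6 (-0.08 to 0.34); under IL-15 Itgae (-0.25 to 0.74) and Ahr (-0.04 to 0.21); in lung Itga1 (-0.27 to 0.01) and Zfp683 (-0.53 with voom with library weights, -0.04 without the shallow libraries, -0.13 to 0.56 with a library left out). Il7r in KO lung against naive was 0.08 with the length and GC offset and -0.27 to 0.05 with a library left out. The cause of these shifts was not tested. The offset moved the median of all genes to -0.10 in WT and -0.12 in KO for IL-15 against naive. Fits of the compared groups alone equal the reported ones for lung KO against WT, the library-number block applies only to IL-15 against naive and to its interaction with genotype, where it left 0 genes called, and Zfp683 was not tested under the stricter filter. Zfp683 had too few counts to resolve changes of the sizes given.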

Other observations

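The genes whose levels ran most like each of the 10 over all 24 libraries are given as descriptions, by Pearson's r of log2 CPM among 10580 genes with a mean of at least 1 CPM; libraries of a group share tissue, treatment and genotype. For Il7r they were Slco3a1 (r = 0.91) and Cd3g (r = 0.91), the latter a T cell receptor complex chain. For Kit they were Lrrc20 (0.94) and Zfp41 (0.93). For Itga1 they were Rbbp8, a DNA end resection factor (0.95), and Tfrc, the transferrin receptor (0.95). For Ahr they were Synpo and Mta1 (0.90 each). For Cd7 they were Cd160, a surface receptor of NK and resident cells (0.94), and Pglyrp2 (0.94). The Tmem176 pair differed: Acaa2 (0.87) and Emc10 (0.85) for Tmem176a, and Ctsz (0.81) and Fuca1 (0.80), both lysosomal enzymes, for Tmem176b. Cxcr6 gave Slc27a6 (0.89) and Mboat1 (0.87). The scarce genes gave the lowest values, with Tmem65 (0.79) and Fam53b (0.78) for Itgae and Plcg2 (0.75) and Tgfbr3 (0.72) for Zfp683.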
